A study of Mus musculus with 6 samples.

Results

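The 8 genes described here encode proteins that nasal epithelium and its glands release onto the mucosal surface, or that make or carry such proteins, and were followed in the mouse vomeronasal organ. They were chosen by name, as Bpifa1, Bpifb3, Bpifb4, Muc5b, Ltf, Agr2, Pigr and Scgb1c1, out of 35450 genes quantified, and all 8 were among the 16679 that had enough reads to be tested. The vomeronasal organ is a paired tube at the base of the nasal septum whose sensory neurons detect pheromones. The comparison was between 3 wild-type (Cnpy1+/+) mice and 3 littermates with both Cnpy1 alleles knocked out (Cnpy1-/-), all at postnatal day 60. Cnpy1 belongs to the Canopy family of endoplasmic reticulum proteins, and the labels name no tissue or cell type to which its loss was restricted. Wild-type replicates 1 and 3 were male and replicate 2 was female. Knockout replicates 1 and 2 were male and replicate 3 was female. Each library held poly(A) RNA from both organs of 1 mouse, with the outer bone removed, so it mixes neurons, supporting cells, glands, vessels and blood. In such bulk samples, fewer cells of a type and less RNA per cell cannot be told apart.

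The mucosal surface of the nose is covered by a secreted layer that traps particles and limits microbes. Gel-forming mucins such as Muc5b give this layer its viscosity, and they are folded in the endoplasmic reticulum with the help of Agr2, a protein disulfide isomerase. BPI-fold (BPIF) proteins are secreted proteins related to bactericidal/permeability-increasing protein, which binds bacterial lipids. Bpifa1 is an abundant surface protein of the upper airway, while Bpifb3 and Bpifb4 are longer family members first described in olfactory mucosa of the rat. Scgb1c1 is a secretoglobin, a small secreted protein of the olfactory mucosa. Ltf encodes lactoferrin, which binds iron and occurs both in exocrine secretions and in neutrophil granules. Pigr encodes the polymeric immunoglobulin receptor, which carries IgA across epithelia into secretions.

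The libraries held 60969508 to 71670766 estimated reads. The Cnpy1 level checks the labels: in CPM (counts scaled to a common library size, with TMM factors) it ran from 280 to 325 in wild type and from 67.2 to 77.6 in the knockout. The ranges did not overlap, and the difference was -2.04 on the log2 scale (edgeR adjusted p = 1.75e-05). Markers of vomeronasal sensory neurons, the cell type that defines the organ, were present in every library, at a summed TPM of 1460 to 1668 in wild type and 1145 to 1458 in the knockout. Of the 5 markers, Gnao1 was called lower (log2 -0.41, edgeR adjusted p = 0.0143). Omp was at 699 to 879 TPM in wild type and 516 to 660 TPM in the knockout. Trpc2 was at 145 to 157 and 98.7 to 125 TPM, and Ano2 at 48.3 to 54.3 and 36.1 to 42.6 TPM. Each of these had every knockout below every wild type but was not called (edgeR adjusted p = 0.203, 0.197 and 0.107). Gnai2 was at 423 to 436 TPM in wild type and 403 to 513 TPM in the knockout (log2 0.17, edgeR adjusted p = 0.377). Knockout replicate 3 had the lowest level of 4 of 6 markers of main olfactory neurons. Knockout replicate 1 had the highest level of 4 of 6 markers of goblet and mucous cells. Both libraries recur below.

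The promoter stretches of 3 of the genes are shown: an even gene (Bpifa1), and Bpifb3 and Scgb1c1, which had a similar order of mice. Bpifb4 shared that order but held no match to the pattern CCCNNGGG. Ltf held a match but had another order of mice. The sequences are from RefSeq on GRCm38.p6, plus strand, and cover bases before a transcription start that lie in no annotated exon of the gene. The Bpifb3 stretch lies before the later of its RefSeq starts and inside the annotated gene, which begins at position 153918230. In Bpifa1 the capitals mark TATTTAC and TATAAA, and in Bpifb3 and Scgb1c1 they mark the pattern CCCNNGGG.
Bpifa1 (chr2:154142630-154142879): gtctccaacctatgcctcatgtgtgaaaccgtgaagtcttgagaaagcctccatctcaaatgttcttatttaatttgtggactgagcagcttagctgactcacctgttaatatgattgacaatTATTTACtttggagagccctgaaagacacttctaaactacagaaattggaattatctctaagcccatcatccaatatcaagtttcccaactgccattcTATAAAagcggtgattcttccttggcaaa
Bpifb3 (chr2:153918359-153918393): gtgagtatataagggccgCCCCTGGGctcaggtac
Scgb1c1 (chr7:140845315-140845546): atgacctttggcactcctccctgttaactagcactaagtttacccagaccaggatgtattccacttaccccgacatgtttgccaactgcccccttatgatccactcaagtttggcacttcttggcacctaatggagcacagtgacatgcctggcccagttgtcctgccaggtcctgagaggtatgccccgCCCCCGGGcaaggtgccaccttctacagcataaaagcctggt

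CCCNNGGG is the core of the motif bound by EBF family factors. Over the 250 bases before each RefSeq start, searched on both strands, it was found in 11.8% of 32851 windows. Of the 7 members with an entry, Scgb1c1, Ltf and Bpifb3 held it, the last in 1 of its 2 windows. The match shown for Bpifb3 began 17 bases before the start of its main transcript, and the match in Scgb1c1 began 60 bases before the RefSeq start. Bpifb4, Bpifa1, Agr2 and Pigr held no match in these windows. TATAAA, the core of a TATA box, was found in 12.4% of windows and, among the members, in Bpifa1. It began 29 bases before the start. TATTTAC, a forkhead pattern, was found in 2.73% of windows and, among the members, in Bpifa1. The other forkhead pattern searched, TGTTTAC, was in 3.17% of windows and in no member, and the NF-kB pattern was in 45.8% of windows and in Pigr, Bpifb3, Scgb1c1 and Ltf. A match describes letters in a window, not a bound site.

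Levels were compared between genes in TPM, which is scaled by transcript length. Ltf had the highest mean over the 6 mice, 3887 TPM, and ranked 15 of 35450 genes. Bpifa1 followed at 3089 TPM (rank 18). It was below Ltf in 5 of 6 mice, and the ranges of these neighbours overlapped. Scgb1c1 averaged 738 TPM (rank 109) and Pigr 346 TPM (rank 265), with overlapping ranges and Scgb1c1 higher in 5 of 6 mice. Agr2 averaged 131 TPM (rank 738) and Bpifb3 54.9 TPM (rank 1973). Agr2 exceeded Bpifb3 in all 6 mice although their ranges overlapped. Muc5b averaged 6.37 TPM (rank 10086) and Bpifb4 1.21 TPM (rank 14065). The ranges of Bpifa1 and Scgb1c1, of Pigr and Agr2, and of Bpifb3 and Muc5b did not overlap. The 8 genes together made up 7615 to 9116 TPM per mouse, and Ltf with Bpifa1 supplied 79.8% to 87.3% of that sum. Thus an iron-binding protein and a BPI-fold protein dominated the set, and the gel-forming mucin was a minor transcript.

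**Figure D1:**
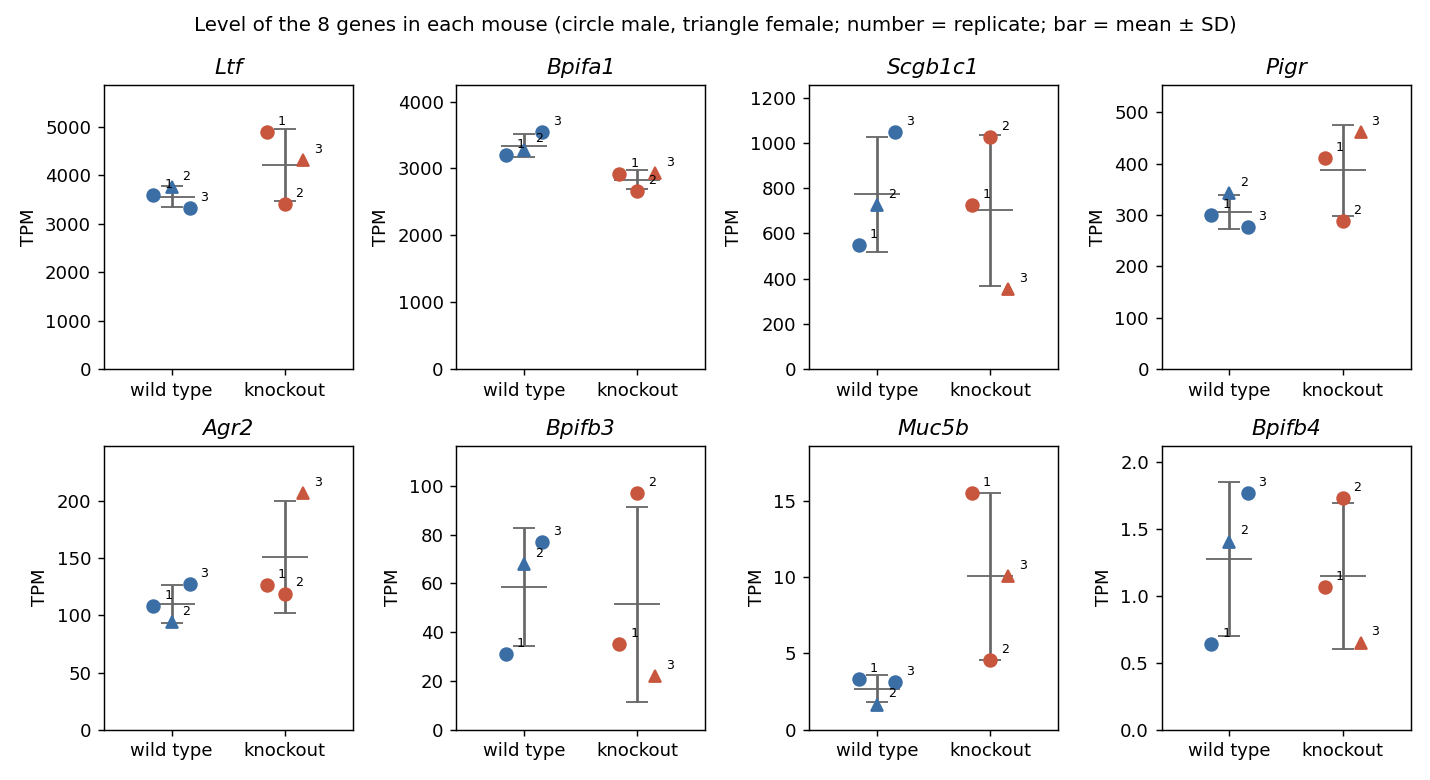
Level of each gene in each mouse, in TPM on linear axes that start at 0, with wild type in blue, knockout in red, circles for males, triangles for females, the replicate number beside each point, and the mean with SD (n = 3) as bars. Muc5b lies between 1.65 and 3.33 TPM in wild type and between 4.54 and 15.5 TPM in the knockout, while the groups of Bpifb3, Bpifb4 and Scgb1c1 overlap widely.

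None of the 8 genes was called for genotype by edgeR's quasi-likelihood test at an adjusted p under 0.05, against 0.761% of all genes tested (127 of 16679). The adjusted p-values ran from 0.115 to 0.996. At an unadjusted p under 0.05, 4 of the 8 were higher in the knockout (Muc5b, Ltf, Agr2 and Pigr), where the share over all genes was 4.55%, and 1 was lower (Bpifa1), where it was 5.99%. For the same 4 genes every knockout exceeded every wild type in CPM, as it did for 7.22% of all genes, and for Bpifa1 every knockout was lower, as it was for 8.95%. In TPM, the groups of Ltf, Agr2 and Pigr overlapped and those of Muc5b and Bpifa1 did not. The median log2 fold change was 0.22 over the 8 members and 0.01 over all genes tested. With the DESeq2 Wald test, 2 members were called, Muc5b (adjusted p = 0.0195) and Pigr (adjusted p = 0.0270), both higher, against 0.552% of genes called higher. With limma-voom no member was called, against 0.719% of all genes, and 5 were at an unadjusted p under 0.05, against 10.4%.

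**Figure D2:**
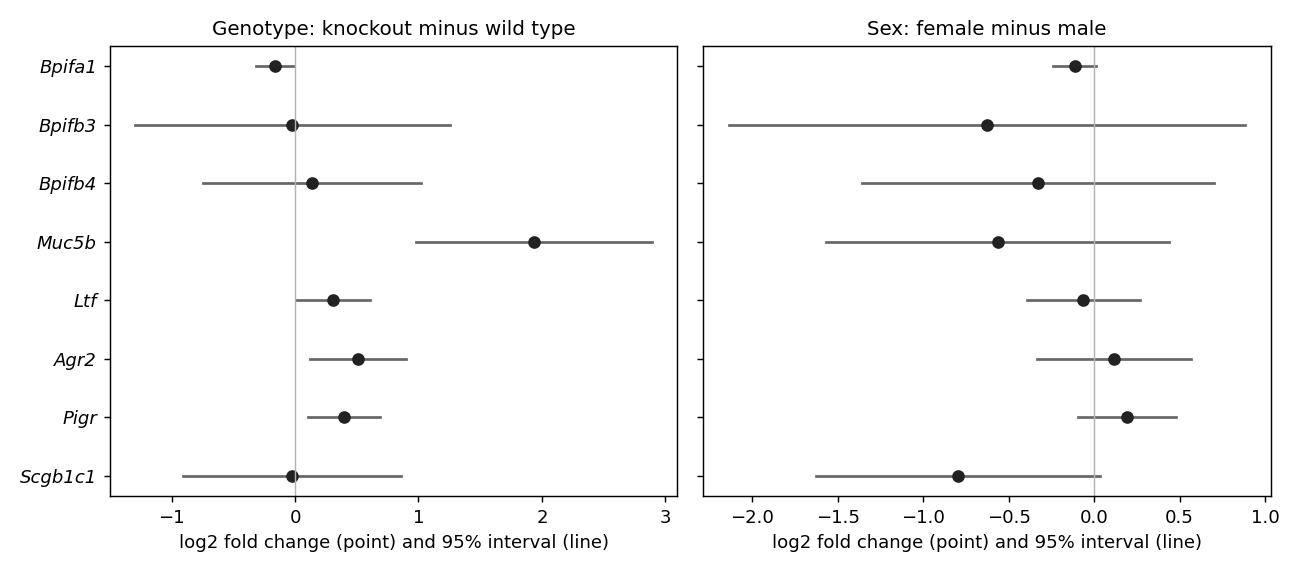
Log2 fold change of each gene between genotypes (left, knockout minus wild type) and between sexes (right, female minus male), as points with 95% intervals as lines, from edgeR. The genotype interval of Muc5b runs from 0.98 to 2.89, and those of Bpifb3, Bpifb4 and Scgb1c1 span 0.

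Among the BPI-fold genes, Bpifa1 (ENSMUSG00000027483.7, chromosome 2, positions 154142880 to 154149219, plus strand, GRCm38) was high and even in every mouse. Its levels were 3206, 3283 and 3542 TPM in wild-type replicates 1, 2 and 3 and 2910, 2665 and 2928 TPM in knockout replicates 1, 2 and 3. Every knockout was below every wild type, and the highest mouse had 1.33 times the level of the lowest. The level was 3344 ± 176 TPM in wild type and 2834 ± 147 TPM in the knockout (SD, n = 3 each). The genotypes differed by -0.16 on the log2 scale (SE 0.07, 95% interval -0.32 to -0.01, edgeR adjusted p = 0.442), a small difference that did not pass the adjusted threshold. It stayed below 0 in each of the 16 alternatives run, between -0.24 and -0.13. A single transcript of 9 exons held nearly all its reads.

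Bpifb3 (ENSMUSG00000068008.8, chromosome 2, positions 153918230 to 153932996, plus strand) had the largest SD of log2 CPM within a genotype, pooled over both genotypes, of the 8 members. It measured 30.9, 67.8 and 76.8 TPM in wild-type replicates 1, 2 and 3 and 35.1, 97.0 and 21.9 TPM in knockout replicates 1, 2 and 3. The highest and the lowest mouse were both knockouts, 4.43-fold apart, and the groups overlapped. The genotypes differed by -0.02 on the log2 scale (SE 0.55, edgeR adjusted p = 0.996), and the 95% interval ran from -1.29 to 1.25, which includes 2-fold changes in either direction. Its main transcript (16 exons) held 98.8% of its reads.

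Bpifb4 (ENSMUSG00000074665.10, chromosome 2, positions 153938212 to 153964101, plus strand) starts 5.2 kb after the end of Bpifb3 and was barely expressed. Its reads numbered 81, 155 and 207 in wild-type replicates 1, 2 and 3 and 138, 203 and 92 in knockout replicates 1, 2 and 3. In TPM these are 0.642, 1.41 and 1.77 against 1.07, 1.74 and 0.651, and the groups overlapped. Between genotypes it differed by 0.13 on the log2 scale (SE 0.38, 95% interval -0.75 to 1.02, edgeR adjusted p = 0.946). Of these reads, 66.9% were assigned to a retained-intron transcript of 3 exons (ENSMUST00000154281.1), not to a transcript that encodes the protein. The protein-coding transcripts received 39.8, 64.7 and 92.3 estimated reads in wild type and 29.7, 63.2 and 0 in the knockout, in replicate order. In knockout replicate 3, 0 of 92 reads allows a coding share of up to 3.26% (counting error only). The measured Bpifb4 level was thus mostly that of a non-coding transcript, and the split rests on the authors' estimation.

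Bpifb3, Bpifb4 and Bpifa1 lie in a cluster of 13 BPIF genes on chromosome 2 that runs over 445.6 kb, from Bpifb2 (start 153875045) to Bpifb9b (end 154320646). Of the 13, 7 were tested and 6 averaged below 1 TPM. Bpifb6, 5.4 kb before Bpifb3, averaged 0.0271 TPM, and Bpifa3, 4.5 kb before Bpifa1, averaged 0.0350 TPM. The secreted genes Bpifb1 and Bpifb9a at its far end averaged 97.6 and 71.0 TPM, but over mice they ran from 12.7 to 345 TPM and from 0.0296 to 373 TPM. Both were highest in knockout replicate 1. Bpifa1 was thus the one abundant and even gene among those tested in the cluster.

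Scgb1c1 (ENSMUSG00000038801.6, chromosome 7, positions 140845547 to 140846769, plus strand, 3 exons) was abundant but variable. Its levels were 548, 724 and 1048 TPM in wild-type replicates 1, 2 and 3 and 724, 1026 and 355 TPM in knockout replicates 1, 2 and 3. The groups overlapped and the lowest mouse was knockout replicate 3. The mean was 773 ± 254 TPM in wild type and 702 ± 336 TPM in the knockout (SD, n = 3 each). Its log2 fold change was -0.02 (SE 0.38, 95% interval -0.90 to 0.86, edgeR adjusted p = 0.994).

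Muc5b (ENSMUSG00000066108.7, chromosome 7, positions 141839070 to 141873084, plus strand, 1 annotated transcript of 49 exons) had the largest genotype difference of the set. It measured 3.33, 1.65 and 3.12 TPM in wild-type replicates 1, 2 and 3 and 15.5, 4.54 and 10.1 TPM in knockout replicates 1, 2 and 3. The lowest knockout exceeded the highest wild type, and knockout replicate 1 was the highest mouse. The reads behind these values numbered 2707, 1126 and 2501 in wild type and 11036, 3494 and 7370 in the knockout. The mean was 30.8 ± 11.6 CPM over the wild types and 118 ± 62.7 CPM over the knockouts (SD, n = 3 each). In log2 the difference was 1.93 (SE 0.42, edgeR adjusted p = 0.115), or 3.82-fold with a 95% interval from 1.97-fold to 7.40-fold. Whether it passed the adjusted threshold depended on the test and on the mice: over 16 alternatives the adjusted p ran from 0.00147 to 0.390, and 4 of them called it. Without knockout replicate 1 the log2 fold change was 1.46 (edgeR adjusted p = 0.251), and without knockout replicate 2 it was 2.25 (edgeR adjusted p = 0.0493). Of its 31-base words, 99.8% occurred in no other gene, the rest being shared with Muc5ac, the other gel-forming airway mucin.

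Agr2 (ENSMUSG00000020581.11, chromosome 12, positions 35992907 to 36004087, plus strand), whose product folds mucins, measured 108, 94.1 and 127 TPM in wild-type replicates 1, 2 and 3 and 127, 119 and 207 TPM in knockout replicates 1, 2 and 3. Knockout replicate 3 stood highest, and the other 2 knockouts lay within the range of the wild types in TPM. In CPM they lay just above it, at 59.1 and 60.3 against 40.2 to 54.3. Agr2 differed by 0.51 on the log2 scale (SE 0.17, 95% interval 0.12 to 0.90, edgeR adjusted p = 0.337). It was 0.29 without knockout replicate 3 and 0.17 in males alone.

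Ltf (ENSMUSG00000032496.7, chromosome 9, positions 111019271 to 111042767, plus strand) measured 3596, 3766 and 3330 TPM in wild-type replicates 1, 2 and 3 and 4892, 3414 and 4322 TPM in knockout replicates 1, 2 and 3. Knockout replicates 1 and 3 lay above all wild types and replicate 2 lay among them. Ltf differed by 0.31 on the log2 scale (SE 0.13, 95% interval 0.01 to 0.61, edgeR adjusted p = 0.456), and it was 0.18 without knockout replicate 1. Of 12 annotated transcripts, the main one of 17 exons held 98.4% of the reads. A transcript marked for nonsense-mediated decay (Ltf-207) held a further 1.39%, from 0.793% to 2.13% by mouse.

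Pigr (ENSMUSG00000026417.13, chromosome 1, positions 130826684 to 130852249, plus strand) showed a like order of mice in TPM. It measured 300, 342 and 276 TPM in wild-type replicates 1, 2 and 3 and 411, 289 and 461 TPM in knockout replicates 1, 2 and 3. Knockout replicates 1 and 3 stood above all wild types, as for Ltf, and replicate 2 lay among them. In CPM the orders differed: knockout replicate 3 was the highest mouse for Pigr (1232 CPM) but the lowest knockout for Ltf (7198 CPM). Between genotypes Pigr differed by 0.40 on the log2 scale (SE 0.13, 95% interval 0.10 to 0.69, edgeR adjusted p = 0.320). It was above 0 in each of the 16 alternatives, between 0.29 and 0.51.

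The spread between mice differed widely among the members. It is given as the SD of log2 CPM within a genotype, pooled over both genotypes, with its percentile among the 16679 genes tested, whose median was 0.11. Bpifa1 was the only member below that median, at 0.07 (percentile 21.9). Ltf and Pigr were each at 0.20 (percentiles 77.3 and 77.8), and Agr2 at 0.29 (percentile 86.2). Bpifb4 at 0.65, Scgb1c1 at 0.69, Muc5b at 0.72 and Bpifb3 at 0.97 were in the top 3 percent of genes, at percentiles 97.0, 97.4, 97.7 and 98.7. The 99th percentile of all genes was 1.10. Bpifb4 has few reads, which adds counting error, whereas Scgb1c1 and Bpifb3 rest on 1668 to 14949 reads per mouse. As a biological coefficient of variation, edgeR gave 7.91% for Bpifa1 and 46.3% for Bpifb3, against a common value of 12.8%.

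**Figure D3:**
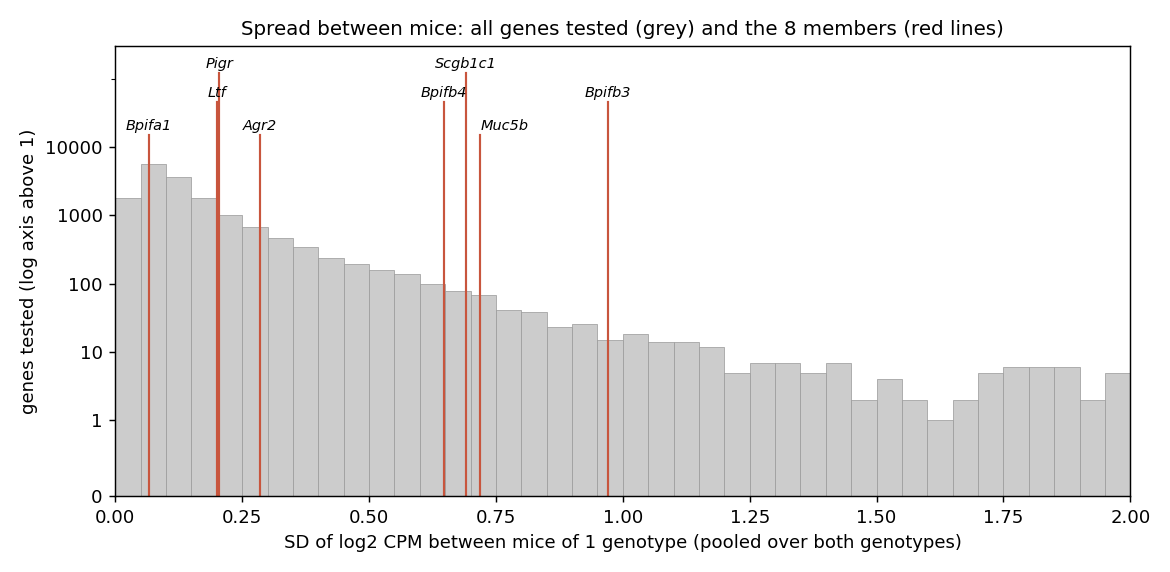
Spread between mice of all genes tested (grey bars, number of genes on a log axis) and of the 8 members (red lines), as the SD of log2 CPM within a genotype pooled over both. Bpifa1 lies at 0.07, left of the median of 0.11, and Bpifb3 at 0.97, and 71 genes with an SD above 2 lie outside the axis.

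Bpifb3, Bpifb4 and Scgb1c1 shared an order of mice that did not follow genotype. In CPM, all 3 genes were highest in knockout replicate 2 and next highest in wild-type replicate 3 (in TPM this order was swapped for Bpifb4 and Scgb1c1), and had knockout replicate 3 and wild-type replicate 1 as their lowest mice. The likeness of profiles was measured as the mean absolute difference over the 6 mice of log2 CPM centred on each gene's mean, among the 10792 other genes with at least 10 CPM (10793 for Bpifb4, which is below that level). Scgb1c1 was the third nearest gene to Bpifb3 (0.33) and the fourth nearest to Bpifb4 (0.22), while Bpifb3 was number 31 and Bpifb4 number 14 in nearness to Scgb1c1. Between the neighbours, Bpifb4 was number 10 in nearness to Bpifb3 and Bpifb3 number 59 to Bpifb4 (0.37). The nearest to Bpifb3 were Gpx6 (0.31), a glutathione peroxidase of the olfactory epithelium, and Vmo1 (0.32). The nearest to Bpifb4 were Cnga2 (0.19), a subunit of the odor-gated channel of main olfactory neurons, Gpx6 (0.21) and Stoml3 (0.21), a protein of olfactory cilia. The nearest to Scgb1c1 were the olfactory receptor gene Olfr124 (0.08) and the cytochrome P450 genes Cyp1a2 (0.08) and Cyp2g1 (0.09), the last known from supporting cells and glands of olfactory mucosa. These 6 points share libraries and a low reading in knockout replicate 3, and the distances are given as a description.

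Levels of main olfactory epithelium markers are given beside these 3 genes. The 6 main olfactory neuron markers summed to 130, 157 and 176 TPM in wild-type replicates 1, 2 and 3 and to 152, 142 and 106 TPM in knockout replicates 1, 2 and 3. Of the 6, 4 were lowest in knockout replicate 3, as Bpifb3 and Scgb1c1 were, while Cnga4 and Ano2 were lowest in knockout replicate 2, where the 3 members were high. Ano2 is also a marker of vomeronasal neurons. Cnga2 measured 7.15, 9.89 and 11.2 TPM in wild-type replicates 1, 2 and 3 and 8.77, 8.66 and 4.85 TPM in knockout replicates 1, 2 and 3. The 5 supporting cell markers summed to 2704, 3281 and 3252 TPM in wild type and to 2945, 2666 and 3000 TPM in the knockout, in replicate order. Of these, 3 were lowest in knockout replicate 3, but their sum was lowest in knockout replicate 2, and Cbr2, the most abundant, was at 2597 TPM in knockout replicate 3, above 4 of the other mice. Single markers differed from these sums: in CPM, Cnga2, Stoml3 and Cyp2g1 were each highest in knockout replicate 2, as the 3 members were. None of the 6 neuron markers was at 0 in any library. The part of main olfactory tissue in the values of Bpifb3, Bpifb4 and Scgb1c1 was not tested.

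**Figure D4:**
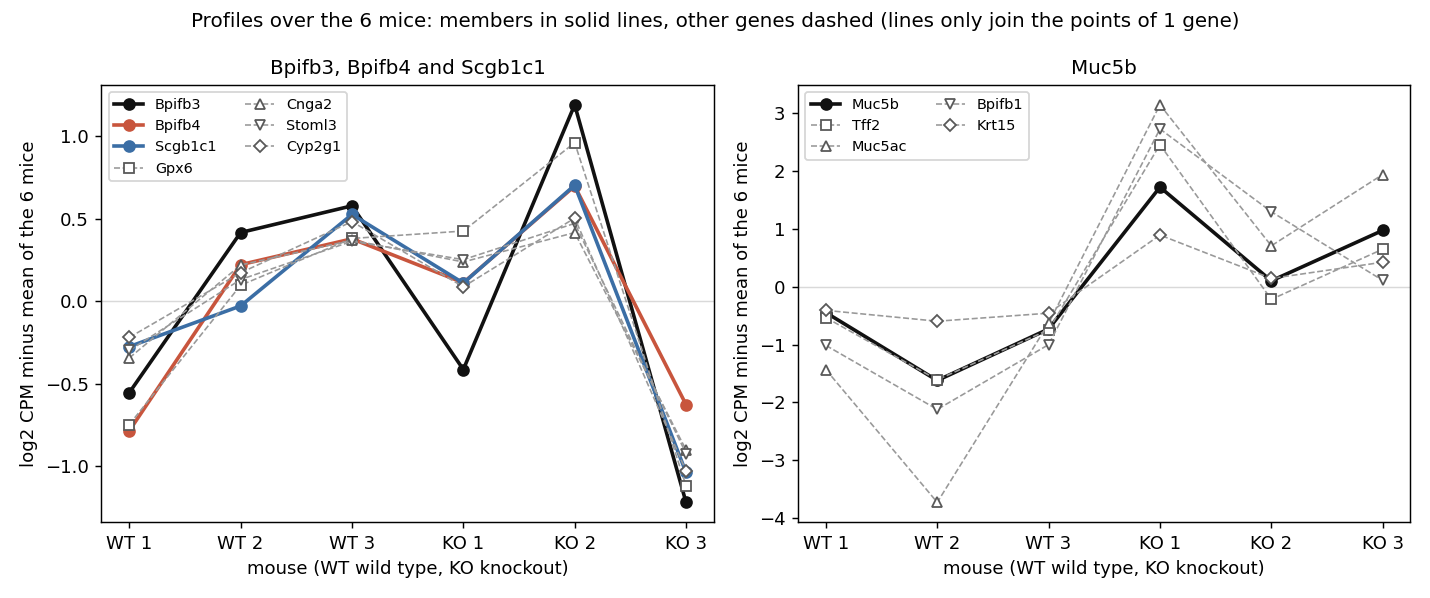
Log2 CPM of each gene minus its mean over the 6 mice, for Bpifb3, Bpifb4 and Scgb1c1 with 4 olfactory genes (left) and for Muc5b with 4 gland or epithelial genes (right). On the left all genes shown are lowest in knockout replicate 3 except Bpifb4, whose lowest mouse is wild-type replicate 1, and on the right Muc5b, Tff2, Muc5ac, Bpifb1 and Krt15 are highest in knockout replicate 1.

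Muc5b had a different profile, lowest in wild-type replicate 2 and highest in knockout replicate 1. Its nearest gene was Tff2 (0.25), a trefoil factor secreted by mucous cells, followed by Krt15 (0.46), a keratin of basal epithelial cells, and Clu (0.54), the secreted chaperone clusterin. Tff2 measured 49.8, 26.2 and 47.6 TPM in wild-type replicates 1, 2 and 3 and 404, 58.7 and 125 TPM in knockout replicates 1, 2 and 3. The knockouts lay above the wild types for Tff2, with a log2 fold change of 2.30 (edgeR adjusted p = 0.233). As Tff2, Krt15 and Clu were picked for their nearness to Muc5b, a shared genotype difference is no separate result. Krt15 rose in the knockout, with a log2 fold change of 1.01 (edgeR adjusted p = 0.0406). Its levels were 23.6, 23.2 and 25.8 TPM in wild type and 60.1, 32.4 and 47.3 TPM in the knockout, in replicate order.

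Agr2 was nearest to Lgals3 (0.12), which encodes galectin 3, to Lbp (0.12), a lipopolysaccharide-binding protein of the BPI family, and to the vomeronasal receptor gene Vmn1r224 (0.13). All 4 genes were highest in knockout replicate 3. Ltf and Pigr differed from each other by 0.11, and Ltf was number 69 of 10792 in nearness to Pigr and Pigr number 337 in nearness to Ltf. Among all genes, Agr2 was number 23 of 10792 in nearness to Muc5b (0.69), Pigr number 45 and Ltf number 90, but Muc5b, with its wider range, was number 10718 in nearness to Agr2, 10733 to Pigr and 10738 to Ltf. Muc5b and Agr2 were both lowest in wild-type replicate 2 and higher in each knockout than in any wild type in CPM, but their highest mouse differed.

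The wider groups to which the members belong were read from 6 lists. In the fit to all 6 mice, edgeR called no gene of any list after adjustment over all genes, so each list is given by its genes at an unadjusted p under 0.05, where the share over all genes was 4.55% for higher and 5.99% for lower, and by its median log2 fold change, which was 0.01 over all genes tested. Of the mucins, 10 were tested and 5 were higher and 0 lower, with a median of 0.31. Of the mucin production and goblet cell genes, 15 were tested and 9 were higher and 0 lower, with a median of 0.51. The 3 genes with the highest mean level besides the members were Tff2, which exceeded the others in knockout replicates 1 and 3 and lay below them in the other mice, Galnt6, which starts O-linked glycosylation (log2 -0.06, edgeR adjusted p = 0.802), and Fcgbp, a mucus protein (0.16, adjusted p = 0.768). The mucins with the highest mean levels over the 6 mice, each above the mean of Muc5b, were membrane-bound: Muc1 (0.31, edgeR adjusted p = 0.536), Muc13 (0.15, adjusted p = 0.758) and Muc4 (0.30, adjusted p = 0.410). In knockout replicate 1, Muc5b (15.5 TPM) was above Muc4 (11.8 TPM). The other gel-forming airway mucin, Muc5ac, named after its values were seen, measured 0.599, 0.133 and 1.19 TPM in wild type and 14.9, 2.48 and 7.07 TPM in the knockout, in replicate order (log2 3.71, SE 0.77, edgeR adjusted p = 0.105). Like Muc5b, it was above all wild types in all 3 knockouts and highest in knockout replicate 1.

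Of the secreted antimicrobial and protease inhibitor genes, 21 were tested and 11 were higher and 0 lower, with a median log2 fold change of 0.41. The 3 with the highest levels were Wfdc18, Dmbt1 and Reg3g. Wfdc18, a secreted protein with a whey acidic protein domain, had by far the highest level of the list and ran from 27765 to 31208 TPM over the 6 mice (log2 0.10, edgeR adjusted p = 0.832). Dmbt1, a scavenger glycoprotein of secretions, differed by 0.36 (edgeR adjusted p = 0.761), and Reg3g, an antibacterial lectin, by 0.41 (edgeR adjusted p = 0.266). Reg3g measured 3747, 4008 and 3883 TPM in wild type and 4737, 3764 and 6349 TPM in the knockout, in replicate order, with knockout replicates 1 and 3 above all wild types as for Ltf and Pigr. Of the secretory antibody and plasma cell genes, 12 were tested and 4 were higher and 0 lower, with a median of 0.27. Xbp1, a transcription factor of secretory cells (0.17, edgeR adjusted p = 0.560), Tnfsf13, a plasma cell survival factor (0.00, adjusted p = 0.997), and Ccl28, a chemokine that attracts IgA plasma cells (0.54, adjusted p = 0.165), had the highest mean levels over the 6 mice beside Pigr. Ccl28 is among them through its knockout level. In wild type it averaged 8.45 TPM, below Ighm at 8.80 TPM (log2 0.05, edgeR adjusted p = 0.906).

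Of the BPI-fold family, 10 of 17 listed genes were tested, and 4 were higher and 1 lower, with a median log2 fold change of 0.22, or 3.06 over the 7 that are not members. The 4 higher genes, Bpifa2, Bpifb1, Bpifb5 and Bpifb9a, were all highest in knockout replicate 1. Bpifa2 was at 0.116 to 0.319 TPM in wild type and 5.57, 0.505 and 0.104 TPM in the knockout. Bpifb5 was at 0.0764 to 0.711 TPM and 9.99, 1.38 and 0.423 TPM. The 3.06 was not computed without that mouse. Bpifb1 measured 24.4, 12.7 and 27.5 TPM in wild type and 345, 116 and 59.9 TPM in the knockout, in replicate order (log2 3.06, SE 0.62, edgeR adjusted p = 0.0977). Bpifb9a measured 0.862, 15.4 and 0.0296 TPM in wild type and 373, 33.2 and 3.60 TPM in the knockout (log2 4.90, SE 1.80, edgeR adjusted p = 0.385), and its groups overlapped. It is among the 3 highest genes of the list through its knockout levels. In wild type it averaged 5.44 TPM, below Pltp at 42.9 TPM (log2 -0.04, edgeR adjusted p = 0.952). Lbp differed by 0.30 (edgeR adjusted p = 0.474). Of 17 secretoglobins, 3 were tested, with 1 higher and 0 lower. Besides Scgb1c1 these were Scgb3a1 (13.1, 13.1 and 8.41 TPM in wild type, 46.7, 11.4 and 12.8 TPM in the knockout) and Scgb2b7 (0.232, 0.687 and 0 TPM against 27.8, 0.436 and 0.693 TPM). In both, knockout replicate 1 alone stood far above the other mice.

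**Figure D5:**
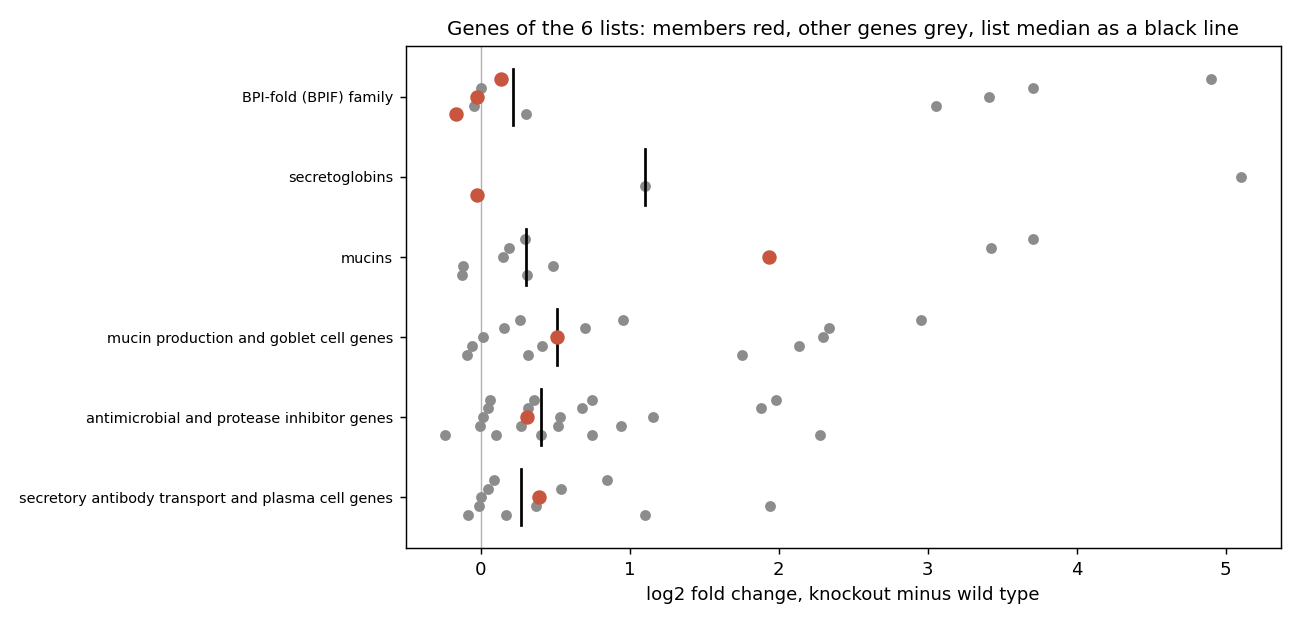
Log2 fold change (knockout minus wild type) of every tested gene of the 6 lists, 1 point a gene, with the members in red, other genes in grey and the list median as a black line. The medians lie at 0.22, 1.10, 0.31, 0.51, 0.41 and 0.27 from top to bottom, and no gene of a list was called by edgeR in the fit to all 6 mice with the filter on low counts.

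Knockout replicate 1 carried part of these list values. It was the highest library for 17.5% of all genes tested, and for 4 of 10 BPI-fold genes, 2 of 3 secretoglobins, 5 of 10 mucins, 9 of 15 goblet cell genes, 9 of 21 antimicrobial genes and 8 of 12 antibody genes. Without it the median log2 fold change of the secretoglobins was 0.14 in place of 1.10, and that of the antimicrobial genes 0.19 in place of 0.41. Other single libraries moved a median by more than 1.5 times as well. That of the BPI-fold genes was 0.39 without knockout replicate 3 and 0.35 without wild-type replicate 3, and that of the mucins was 0.18 without wild-type replicate 2. With no filter on low counts the median of the antibody genes was 0.13 (14 genes) and that of the BPI-fold genes 0.46 (16 genes), and without Pigr the median of the antibody genes was 0.17. Against 0.552% of all genes called higher, DESeq2 called 3 of the mucins (Muc5ac, Muc19 and Muc5b), 4 of the goblet cell genes (St6galnac1, Spdef, Ern2 and Itln1), 2 antimicrobial genes (Reg3g and Lyz2), 2 antibody genes (Pigr and Ccl28) and Bpifb1, all of them higher and named for that call. With edgeR and no filter on low counts, Bpifb1, Muc5ac, Muc5b and Lyz2 were called, against 0.695% of all genes. Muc5b, Itln1, Lcn2 and Chil1 were called without knockout replicate 2 (0.569% of all genes), and Bpifb1 without knockout replicate 3 (0.541%).

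Markers of cells that could release these products are given beside them. All goblet markers, most plasma cell markers and some serous and neutrophil markers are also genes of the lists above. Their values are therefore not separate from the list values. The summed level of 6 goblet and mucous cell markers was 33.2 to 58.0 TPM in wild type and 71.4 to 433 TPM in the knockout, with 4 of the 6 highest in knockout replicate 1. Of these, Tff3 and Foxa3 were below 1 TPM in every library, and Tff3 was at 0. Tff2 made up most of the goblet sum, at 26.2 to 49.8 TPM in wild type and 58.7 to 404 TPM in the knockout. Muc2 differed by 0.19 on the log2 scale (edgeR adjusted p = 0.862). The 7 serous gland markers summed to 5078 to 6432 TPM in wild type and 4515 to 8012 TPM in the knockout, with 4 of 7 highest in knockout replicate 1 and Prol1 at 0. Dmbt1 made up most of the serous sum, at 4159 to 5546 TPM in wild type and 3779 to 7243 TPM in the knockout. The 10 neutrophil markers summed to 95.1 to 111 TPM in wild type and 77.0 to 176 TPM in the knockout, and S100a8 and S100a9 were higher in knockout replicates 1 and 3 than in any other mouse, as Ltf was in TPM. The granule genes Ngp (0.360 to 2.54 TPM in wild type, 0.0573 to 0.715 TPM in the knockout) and Camp (0.0990 to 2.28 and 0.107 to 0.225 TPM) were highest in wild-type replicate 2. The granule and surface markers Elane, Mpo, Mmp8 and Ly6g were below 1 TPM in every library. The 8 plasma cell markers summed to 104 to 108 TPM in wild type and 102 to 114 TPM in the knockout, with Mzb1 and Tnfrsf17 below 1 TPM everywhere. Derl3 and Sdc1 made up most of this sum. Jchain, the joining chain of IgA that Pigr binds, was at 0.359 to 0.761 TPM in wild type and 0.895 to 1.23 TPM in the knockout (log2 1.11, edgeR adjusted p = 0.220), and Igha at 0.164 to 2.44 and 2.05 to 5.87 TPM (log2 1.94, edgeR adjusted p = 0.388). Ciliated cell markers summed to 63.2 to 87.2 and 65.5 to 92.8 TPM, and macrophage markers to 203 to 240 and 202 to 256 TPM, in wild type and knockout. The part of gland, goblet and neutrophil content in the levels of Muc5b, Agr2, Ltf and Pigr was not tested.

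Sex was examined with genotype as a second term, over 4 males and 2 females. None of the 8 genes was called by edgeR for sex, against 0.042% of all genes, and none was at an unadjusted p under 0.05, against 5.5% of all genes. The adjusted p-values ran from 0.856 to 0.960, DESeq2 called none either, and the sexes overlapped in CPM for all 8. Scgb1c1 had the largest difference, -0.80 on the log2 scale (SE 0.35, 95% interval -1.63 to 0.04, edgeR adjusted p = 0.856), with the female knockout the lowest mouse. It was -0.21 without that mouse (knockout replicate 3) and -1.48 without the female wild type (replicate 2), where Bpifb3 was at -1.82. Pigr differed by 0.19 (SE 0.12), and by 0.12 without knockout replicate 2, and Bpifa1 by -0.11 (SE 0.05), and by -0.036 with no scaling factors. The interval of Bpifb3, from -2.14 to 0.88, leaves its sex difference almost undetermined.

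Whether the genotype difference itself differed between the sexes was tested with an interaction term. With 1 female per genotype, a single animal and its sex cannot be told apart. None of the 8 genes was called, against 0.024% of all genes, and 2 were at an unadjusted p under 0.05, against 4.5% of all genes. For Agr2 the knockout minus wild-type difference was greater in females by 0.97 (SE 0.12, edgeR adjusted p = 0.240, and 0.0204 with no filter on low counts). In the females it stood at 40.2 CPM (wild type) and 88.8 CPM (knockout), and in the males at 51.6 and 54.3 CPM (wild type) and 59.1 and 60.3 CPM (knockout). For Scgb1c1 it was lower in females by 1.27 (interaction -1.27, SE 0.48, edgeR adjusted p = 0.958). In the females it stood at 137 CPM (wild type) and 67.8 CPM (knockout).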

How the data were processed

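Per the file headers, the authors deposited 1 table for each library that lists an estimated count of reads and a TPM value for 117081 transcripts. Trim Galore 0.6.6, Salmon 1.9.0 and DESeq2 and the builds mm10 and GRCm38 are named per the submitters' processing notes, and the transcript index is not given in the sources used here. Salmon splits reads that match more than 1 transcript by estimation. TPM values, which the deposited tables scale by effective length, were summed per gene for levels.

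Transcripts were joined to GENCODE M21 genes (GRCm38) by identifier without version. Of them, 115942 matched, and 1139 without a match held 0.304% of reads and stayed out. Rounded sums of the deposited estimated counts over 35450 genes entered edgeR 4.0.16 (R 4.3.3). The quasi-likelihood F test of genotype used TMM scaling and the filterByExpr filter, with Benjamini-Hochberg adjustment over 16679 genes and no other term. A gene is called at an adjusted p under 0.05. The SE is the size of the fold change divided by the square root of F, and 95% intervals use the t distribution of that fit. Sex was tested beside genotype, and the interaction in a separate fit. DESeq2 1.42.0 and limma 3.58.1 were alternatives, and Python 3.11.15 was used for tables. The edgeR script was tested on simulated counts.

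Each library was 1 mouse, and groups, sexes and replicate numbers came from the labels. Same-numbered mice of the 2 genotypes deviated together with correlations of 0.155, -0.094 and 0.230, so the numbers were not taken as pairs. The members and lists were chosen with earlier results of these data known. Besides the members, the text names genes of a list that were called, its 3 genes with the highest mean TPM, and, for members whose log2 CPM spans more than 1, the 3 nearest profiles among genes of at least 10 CPM. Other genes are named for a stated reason after their values were seen.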

Additional observations from a re-analysis of the deposited data

How the results depend on the processing

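The number of genes called for genotype, 127 in the fit reported, was 409 with the DESeq2 Wald test, 76 in males only and 80 with limma on log2(TPM + 0.1), and 69 to 96 when any 1 replicate was left out. For sex, 7 genes were called, 58 with DESeq2, 12 without the filter on low counts and 4 to 10 with any 1 replicate left out. Among the members, Bpifa1, Muc5b, Ltf, Agr2 and Pigr kept the sign of their genotype difference in all 16 alternatives. Leaving out 1 replicate at a time moved the genotype difference of Bpifb3 between -0.99 and 0.37, of Bpifb4 between -0.24 and 0.42 and of Scgb1c1 between -0.47 and 0.32, so their signs turned. In males only, Bpifb3 was at 0.48 and Scgb1c1 at 0.26, and with limma on log2(TPM + 0.1) Bpifb4 was at -0.13. The sex difference ran from -1.82 to 0.30 for Bpifb3, -1.08 to 0.31 for Bpifb4, -0.19 to 0.063 for Ltf and -0.40 to 0.57 for Agr2 with 1 replicate left out, and was 0.016 for Ltf with no scaling factors. The interaction of Bpifa1 was 0.093 with no scaling factors. The causes were not tested. With the replicate block, 154 genes were called and Muc5b had a log2 fold change of 1.87 (edgeR adjusted p = 0.00147). The block also called Muc5ac, Muc19, Ern2, Lyz2 and Ccl28 of the lists. The replicate numbers are not taken as pairs, since the correlation of the mice numbered 2 was -0.094 and knockout replicate 2 was closest to wild-type replicate 1 (0.171). Muc5b was also called without the filter on low counts (edgeR adjusted p = 0.0380). The spread between mice stayed within 1.5 times its value in 16 of 16 checks on another scale, and the log2 TPM difference between genotypes moved by less than 1 SD with a pseudocount of 1 for all 8 genes. Few reads limit Bpifb4, and 3 mice per genotype limit the genes with a wide spread between mice.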
